A study of Mus musculus with 2 samples.

Results

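B cells that had left the precursor stage were 103 of the 1285 leukocytes of the mouse cochlea that passed the cell and hashtag filters, out of 1556 barcodes in all. They were selected on their own counts. A cell needed at least 3 unique molecular identifiers (UMIs, the count of captured transcripts) of Cd79a, at least 4 of Ms4a1, Ighd and Fcmr together, fewer than 300 of S100a8 and S100a9 per 10000 gene UMIs, fewer than 3 of Siglech, fewer than 20 of Jchain and fewer than 3 of Mki67 and Top2a together. These values chose the cells, so they and every gene difference between these cells and other cells are given as a description with no test. Of the genes the rule used, Ms4a1 (CD20) had UMIs in 98 of the 103 cells, Fcmr (the IgM Fc receptor) in 93 and Ighd in 79. Outside the rule, the precursor genes Igll1 and Dntt had 0 UMIs in the 103 cells. Rag1 had 23 UMIs in 9 cells, 5 of them among the 17 cells of day 7, and Sox4 had 62 UMIs in 23 cells. Some of the cells thus still held precursor transcripts. Ighm, which the precursors also carry, was in 102 cells.

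The study sorted living CD45+ leukocytes from the cochleae of sham-treated mice and of mice taken 3, 7 or 14 days after noise exposure. The cochleae of 6 mice were pooled for each condition, so there were 4 pools. Each pool was stained with its own hashtag antibody before all were run as 1 droplet library. The series' own text calls the controls untreated and the staining protocol calls them sham, and strain, sex, age and noise level are not given in the sources used here. All pools shared the enzymatic digestion, the live/dead stain and the CD45 gate. With 1 pool a condition there is no replicate check and no p-value. Every interval below is a 95% exact interval that covers counting error only, and the comparisons of day 3, day 7 and day 14 all share the 1 sham pool.

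B cells arise in the bone marrow. Precursors rearrange the heavy chain and then the light chain gene with the Rag1/Rag2 recombinase, and the heavy chain is first tested with the surrogate light chain made by Vpreb1 and Igll1. A cell with a complete receptor shows IgM as an immature and transitional B cell, marked by Cd93, and then IgM with IgD as a mature follicular cell, marked by Fcer2a (CD23) and Cr2 (CD21). Mature B cells show peptides to helper T cells on MHC class II molecules and move between blood and lymphoid organs by receptors such as Ccr7 and S1pr1.

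The cells numbered 39 of 341 in the sham pool, 37 of 551 at day 3, 17 of 216 at day 7 and 10 of 177 at day 14. Their share was 11.4% (8.26 to 15.3) in sham, 6.72% (4.77 to 9.14) at day 3, 7.87% (4.65 to 12.3) at day 7 and 5.65% (2.74 to 10.1) at day 14. All 3 noise pools lay below sham, and all of their intervals overlapped that of sham. The ratio to sham was 0.587 (0.364 to 0.945) at day 3, 0.688 (0.365 to 1.25) at day 7 and 0.494 (0.220 to 1.01) at day 14. The S100a8/S100a9-high, neutrophil-like cells moved the other way, from 23.2% of the sham pool to 46.5%, 35.6% and 40.7%. Counted only among the cells low in S100a8 and S100a9, the B cells made up 14.9%, 12.5%, 12.2% and 9.52%, and the interval of every ratio to sham then held 1 (day 3: 0.843, 0.523 to 1.36). Among the B-lineage cells, precursors included, they were 39 of 131 in sham, 37 of 118 at day 3, 17 of 63 at day 7 and 10 of 58 at day 14. That is 29.8%, 31.4%, 27.0% and 17.2%, and the day 14 ratio to sham was 0.579 (0.258 to 1.18).

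**Figure D1:**
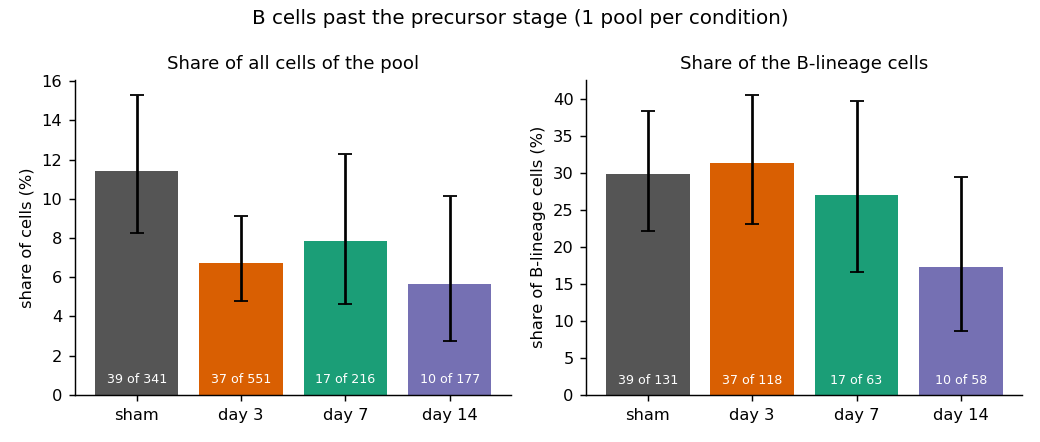
Share of B cells past the precursor stage in each pool, as a percentage of all cells (left) and of B-lineage cells (right); bars are single pools, error bars are exact 95% intervals and the numbers in the bars are cells. The share of all cells is highest in sham (11.4%), while the share of B-lineage cells is 27.0% to 31.4% in 3 pools and 17.2% at day 14.

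The cells held a median of 5150 gene UMIs (2101 to 14769), with pool medians between 4930 and 5324.5. Summed over the cells, the depth was 205295 UMIs in sham, 202098 at day 3, 89582 at day 7 and 59694 at day 14, so day 7 and day 14 rest on the fewest counts. The mitochondrial share of UMIs had a median of 5.60% over the cells, against 0.842% in the S100a8/S100a9-high cells. The gene and hashtag barcode lists were the same 1556 barcodes of 1 library. No doublet caller was run; barcodes with more than 1 hashtag were dropped, which cannot remove doublets within a pool.

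Markers of neutrophils were found in nearly every cell, and those of other cell types were sparse. UMIs of 12 neutrophil markers stood at 2187 CPM (UMIs per 1000000 gene UMIs, from the summed counts of the pool) in sham, 2073 at day 3, 2143 at day 7 and 1692 at day 14, and 102 of the 103 cells held 5 or more of them. Of 10 macrophage and monocyte markers, C1qb, C1qc, Adgre1, Csf1r, Ccr2 and Fcgr1 were at 0 in all 103 cells, and the summed list ranged from 33.5 to 102 CPM. T cell markers summed to 11, 20, 0 and 0 UMIs and natural killer cell markers to 43, 2, 1 and 0, in the order sham, day 3, day 7 and day 14. Of the natural killer UMIs, 41 lay in a single sham cell of 14769 UMIs that also held 112 UMIs of Xcl1 and 11 of Trbc1. A day 3 cell of 10615 UMIs held 3 of Cd3d and 4 of Cd3g. The 12 cochlear and stromal markers summed to 97.4, 134, 100 and 268 CPM, highest at day 14. Of their 72 UMIs 70 were of Pecam1 (CD31), an endothelial adhesion molecule that leukocytes also make, and 9 of the 12 were at 0 in all cells. The cells with T or natural killer cell markers were kept; no gene named below changed direction without them, and 1 (Stap1 at day 3, 0.507) lay inside 2-fold.

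The rule's threshold cut through a sparse stretch. Cells with 2 and 3 UMIs of Ms4a1, Ighd and Fcmr together numbered 11 and 12 and stayed outside; cells with 4 and 5 numbered 6 and 3 and were taken in; the median of the cells taken in was 15. The cells just inside lay between the cells further out and further in for Cd74 but not for Rag1. Cd74 stood at 1715 CPM just outside, 3532 just inside and 13028 in cells with 6 or more. Rag1 stood at 263, 296 and 13.9 CPM in the same order, but its 16 UMIs just inside lay in 4 of the 9 cells, and the other 5 had none. Fcer2a was at 0 in both narrow bands and at 213 CPM above them.

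Ighm transcripts outnumbered those of Ighd in most cells of every pool. Ighm gave 8 to 62 UMIs a cell in sham (median 24), 0 to 65 at day 3 (29), 9 to 51 at day 7 (23) and 9 to 60 at day 14 (34.5). Ighd gave 0 to 16 (3), 0 to 18 (3), 0 to 21 (4) and 0 to 9 (3). The ranges overlapped fully, and Ighd outnumbered Ighm in only 7 of the 103 cells. Its median share of the 2 heavy chain constant regions was 9.23%. Ighm and Ighd lie next to each other on GRCm38 chromosome 12 (113418558-113422730 and 113406604-113416324, minus strand) and are spliced from 1 primary transcript. Cd79a and Cd79b, the signalling chains of the receptor, stood at 3575 and 2395 CPM, and Bank1, a scaffold of receptor signalling, at 555 CPM. None of the 3 was past 2-fold from sham on any day.

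Cd93 and Fcer2a split the cells without overlap. Cd93 UMIs were found in 21 cells and Fcer2a UMIs in 34; no cell held both, and 48 held neither. Cells with Cd93 had a median of 36 Ighm and 1 Ighd UMIs, and cells with Fcer2a a median of 17 Ighm and 7.5 Ighd UMIs. In summed counts, the Cd93 cells stood at 6625 CPM of Ighm and 203 of Ighd and the Fcer2a cells at 4073 and 1579. Vpreb3, a chaperone-like partner of the immature receptor, was at 3410 CPM with Cd93, 1718 with neither and 443 with Fcer2a. MHC class II ran the other way: Cd74 stood at 4493, 11656 and 17889 CPM and H2-Aa at 584, 2080 and 3829. Cr2 stood at 0, 68.6 and 125 CPM. Cells with neither marker thus lay between the other 2 groups in each of these genes, at median depths of 5065, 4931 and 5260 UMIs for Cd93, neither and Fcer2a.

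**Figure D2:**
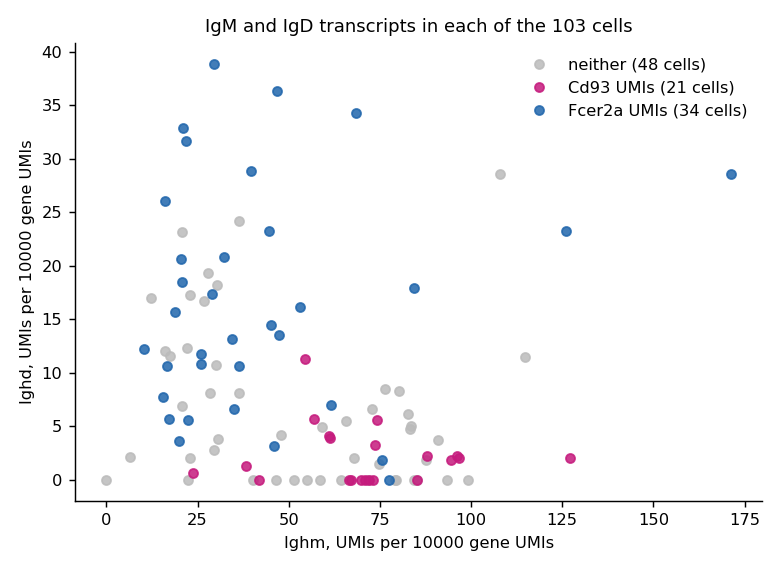
UMIs of Ighm (x) and Ighd (y) per 10000 gene UMIs in each of the 103 cells, coloured by whether the cell held UMIs of Cd93 (21 cells), of Fcer2a (34 cells) or of neither (48 cells). Most Cd93 cells lie low on the Ighd axis, and most cells high in Ighd carry Fcer2a.

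By pool, Cd93 cells were 6 of 39, 9 of 37, 4 of 17 and 2 of 10, and Fcer2a cells 14, 12, 4 and 4. The intervals of these shares overlapped between all pools (Fcer2a in sham 35.9%, 21.2 to 52.8; at day 7 23.5%, 6.81 to 49.9). Free RNA can give a cell UMIs of a gene it does not make. In the S100a8/S100a9-high cells, which were deeper at a median of 9613.5 UMIs, Fcer2a UMIs were in 0.207%, Ms4a1 in 0.413% and Ighd in 0.826%, but Cd93 in 12.2% and Cd74 in 15.1%. Whether these cells make Cd93 or Cd74 themselves was not tested, so those shares do not measure free RNA alone. After thinning every cell to 1500 UMIs, the shares of the B cells with a UMI were 75.7% for Ms4a1, 56.3% for Ighd, 20.4% for Fcer2a and 10.7% for Cd93. The Cd93 share of the thinned S100a8/S100a9-high cells was 2.97%.

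Light chain use leaned to kappa. With kappa called where Igkc made up at least 80% of light chain UMIs and lambda at 20% or less, 62 cells (60.2%, 50.1 to 69.7) were kappa, 7 (6.80%, 2.78 to 13.5) were lambda and 34 held both above these limits. Kappa, lambda and mixed cells were 25, 2 and 12 in sham, 22, 3 and 12 at day 3, 11, 0 and 6 at day 7 and 4, 2 and 4 at day 14. The mixed cells held a median of 35.5 Igkc and 17 Iglc UMIs, and the kappa cells 72.5 and 7. Iglc1, Iglc2 and Iglc3 are related genes, and how reads were split among them was not checked.

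Switched heavy chain transcripts reached 3 or more UMIs in 2 cells, both at day 3. The first held 36 UMIs of Igha, 10 of Ighg2b and none of Ighm among 10492 gene UMIs. The second held 6 UMIs of Ighg2b beside 3 of Ighm. The plasma cell receptor Tnfrsf17 and the cytokine Il10 had 0 UMIs in all 103 cells. None of the 7 germinal centre genes reached 30 UMIs.

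Against the 196 non-cycling precursors of the same pools, these B cells carried MHC class II, follicular and homing genes at higher levels and surrogate light chain and recombination genes at far lower ones. Of 6165 genes with at least 30 UMIs, 363 (5.89%) were at least 2-fold higher and 749 (12.1%) at least 2-fold lower over all pools. Of these, 96 and 105 lay the same way in each of the 4 pools. The rule chose the cells from these counts, so nothing is read from either number. All 10 precursor genes with enough UMIs were lower: Igll1 had 0 UMIs against 845 in the precursors, Dntt (terminal transferase) 0 against 639, Vpreb1 2 against 1691 and Rag1 23 against 494. The median log2 ratio of that list was -4.59. Of 6 transitional genes 4 were past 2-fold lower (among them Cd93 0.229, 0.154 to 0.330, and Vpreb3 0.392, 0.365 to 0.420) and 1, Ly6d, was higher (2.97, 2.39 to 3.71). The transcription factors of the lineage stayed on: Pax5 stood at 422 CPM against 461, while Ebf1 was at 2671 against 5834 and Pou2f2 at 640 against 162.

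Among genes outside the rule, follicular genes were higher, with 7 of 8 past 2-fold and a median log2 ratio of 2.33. Fcer2a had 107 UMIs against 0, which makes it at least 73.7-fold higher with 3 UMIs as the floor. Cd83, a surface protein of activated and mature B cells, had 195 UMIs against 4 (ratio 101, 38.7 to 374). Among homing receptors 9 of 14 were higher; the oxysterol receptor Gpr183 had 94 UMIs against 2 and Ccr7 stood at 338 CPM against 45.2. The survival factor receptors Tnfrsf13c (BAFF receptor; ratio 3.18, 2.68 to 3.77) and Tnfrsf13b (TACI; 2.54, 2.0 to 3.22) were higher, as was Bcl2 (15.9, 7.23 to 41.5), while Bcl2l1 was lower (0.286, 0.164 to 0.470). Bcl2a1b had 56 UMIs against 0; it shares sequence with Bcl2a1a and Bcl2a1d, so its count is uncertain. The inhibitory receptors Cd22 (8.37, 5.08 to 14.4) and Btla (26.9, 8.54 to 136) were higher too. The MHC class I list (9 measured) and the respiratory chain list (17 measured) had no gene past 2-fold, with median log2 ratios of 0.52 and -0.34.

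**Figure D3:**
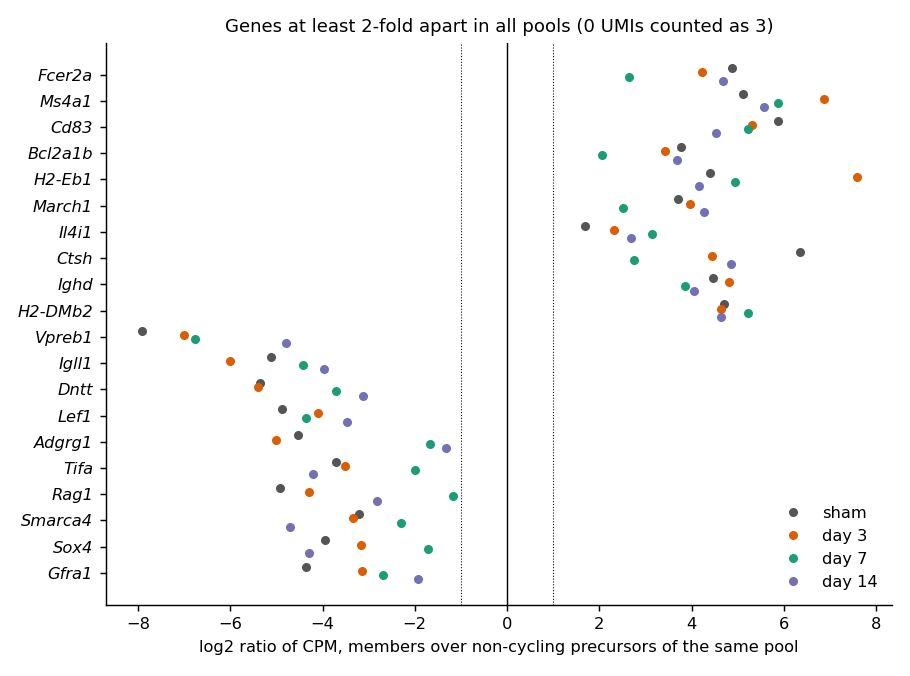
Log2 ratio of CPM between B cells past the precursor stage and non-cycling precursors, 1 point per pool, for the 10 genes furthest up and the 10 furthest down that were at least 2-fold apart in every pool; dotted lines mark 2-fold and 0 UMIs are counted as 3. Ms4a1 and Ighd belong to the rule; Vpreb1, Igll1 and Dntt lie furthest to the left.

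Of the 11 genes of MHC class II presentation, 10 were at least 2-fold higher, than in the precursors, with a median log2 ratio of 2.91; H2-Ob, part of the inhibitory H2-O dimer, was at 1.55 (1.20 to 2.01). Cd74, the invariant chain, stood at 12106 CPM against 1202, and Ciita, the master co-activator of the group, at 142 against 14.8. H2-Eb1 had the largest ratio of the list (31.2, 24.5 to 40.3). The promoters of the genes for MHC class II chains carry a shared set of boxes. Of these the Y box, an inverted CCAAT box, is the simplest to read. The 120 bases before the start of 3 such genes are shown because the members of the MHC class II list are high together. They are RefSeq sequence on GRCm38.p6, 5′ to 3′ on the gene's strand, with CTGATTGG in capitals. They lie at chr17:34287824-34287943 (minus strand) for H2-Aa, chr17:34305747-34305866 (plus) for H2-Eb1 and chr17:34092259-34092378 (plus) for H2-Oa.
H2-Aa: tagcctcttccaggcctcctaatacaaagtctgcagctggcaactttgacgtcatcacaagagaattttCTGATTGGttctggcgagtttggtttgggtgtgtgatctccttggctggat
H2-Eb1: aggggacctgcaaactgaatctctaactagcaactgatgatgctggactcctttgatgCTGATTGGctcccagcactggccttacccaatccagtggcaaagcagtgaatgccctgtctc
H2-Oa: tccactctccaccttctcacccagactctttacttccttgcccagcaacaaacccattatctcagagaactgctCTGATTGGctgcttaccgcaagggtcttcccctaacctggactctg

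The box lies 51, 62 and 46 bases before the start site in H2-Aa, H2-Eb1 and H2-Oa. Of the 11 genes, 8 had a promoter entry, and 3 of the 8 held CTGATTGG on either strand in the 250 bases before the start. Over all 32851 promoters the share was 3.83%. The shorter core ATTGG, which the longer motif contains, was in 7 of the 8 and in 33.8% of all promoters. A match of letters is a description of these windows and says nothing about binding.

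The MHC class II level changed little between pools. Cd74 stood at 13113 CPM in sham, 12326 at day 3, 10259 at day 7 and 10671 at day 14, and H2-Aa at 2499, 2261, 2244 and 1977. Sham was highest in both and the pools differed by less than 2-fold. No gene of the list was past 2-fold on any day, with median log2 ratios of 0.08, -0.11 and -0.25 for 11, 11 and 10 measured genes.

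At day 3 Ifi27l2a, an interferon-inducible gene, was 8.24-fold and Ikzf3 (Aiolos), a transcription factor of maturing B cells, 3.17-fold above sham. Of 2017 genes with at least 30 UMIs in the 2 pools together, 34 (1.69%) were at least 2-fold higher and 35 (1.74%) at least 2-fold lower. The median log2 ratio of all genes was 0.02. Ifi27l2a had 9 UMIs in 7 of 39 sham cells, 73 in 22 of 37 day 3 cells, 14 in 5 of 17 at day 7 and 7 in 5 of 10 at day 14. That is 43.8, 361, 156 and 117 CPM, highest at day 3, with a day 3 ratio of 8.24 (4.11 to 18.7). No cell held more than 19.2% of the day 3 UMIs. The ratio ran from 4.05 without the cells that held precursor genes to 10.4 with the Cd93 cells weighted alike.

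Ifi27l2a transcripts were also present in the other cells. In the precursors they stood at 137, 257, 129 and 204 CPM, with a day 3 ratio of 1.87 (1.33 to 2.65), and in the S100a8/S100a9-high cells at 19.8, 348, 60.6 and 34.9. In the latter 1 cell held 408 of the 1129 day 3 UMIs, and without the top cell of each pool the levels were 10.5, 225, 35.5 and 25.4 CPM; in the precursors they were 117, 177, 69.3 and 159. The difference between these ratios was not tested. The 12 neutrophil markers in the B cells, given above, were at 2187 CPM in sham and 2073 at day 3. After thinning to 1500 UMIs, Ifi27l2a was found in 10.3% of the B cells in sham, 29.7% at day 3, 17.6% at day 7 and 30.0% at day 14. Of the 21 interferon response genes 3 had enough UMIs at day 3, and Ifi27l2a alone of them was past 2-fold (Ifi203 had a ratio of 1.20); Isg15 had 1 UMI and Ifit1 none in all 103 cells.

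Ikzf3 had 17, 53, 36 and 12 UMIs in 15, 26, 10 and 6 cells, in the order sham, day 3, day 7 and day 14. Its level was 82.8, 262, 402 and 201 CPM, lowest in sham. The ratio was 3.17 (1.80 to 5.83) at day 3, 4.85 (2.66 to 9.21) at day 7 and 2.43 (1.06 to 5.39) at day 14, where the 2 pools together held fewer than 30 UMIs. In the precursors the gene stood at 100, 123, 129 and 135 CPM, all within 2-fold of sham. Without the top cell of each pool the ratio was 3.29 at day 3 and 4.62 at day 7. Ikzf3 was the only one of the 17 measured lineage transcription factors past 2-fold on either day.

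**Figure D4:**
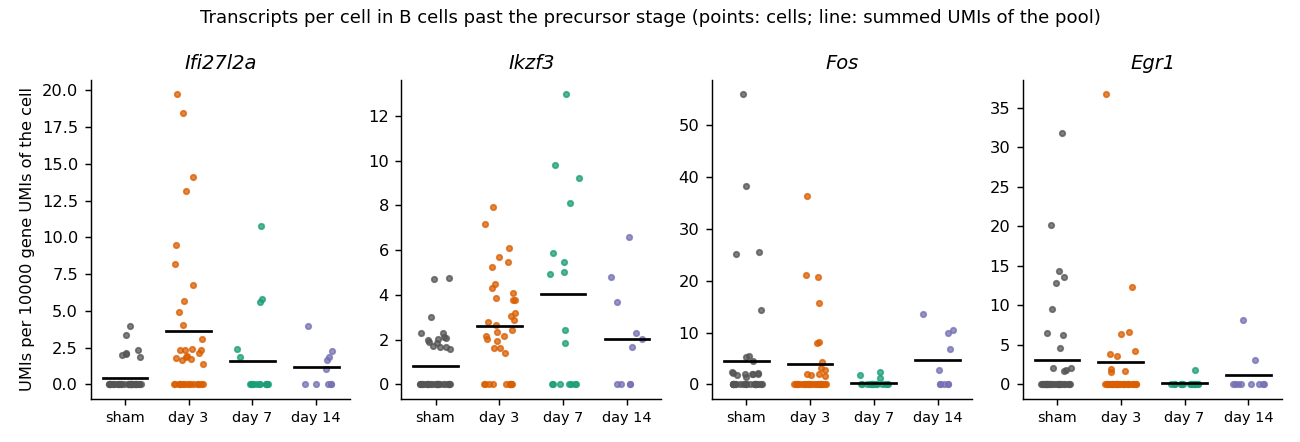
UMIs of Ifi27l2a, Ikzf3, Fos and Egr1 per 10000 gene UMIs of each cell, by pool; points are cells and the line is the summed UMIs of the pool. The ranges of the pools overlap at 0 in every panel; Ifi27l2a reaches highest at day 3, Ikzf3 at day 7, and Fos and Egr1 stay near 0 at day 7.

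Among the other genes high at day 3, Plac8 stood at 136 CPM in sham and 356 at day 3 (2.61, 1.67 to 4.20). Aimp1, a scaffold of the tRNA synthetase complex (3.84, 1.80 to 9.10), and Eif4e2, a cap-binding protein (3.63, 1.53 to 9.93), were higher. Esyt1, a lipid transfer protein of membrane contacts, was higher too (3.17, 1.39 to 8.14). Aimp1, Eif4e2 and Esyt1 held 9, 7 and 8 UMIs in sham and 34, 25 and 25 at day 3. They were thus measured mainly through the pool where they were high. Rrad, a small GTPase, had 6 and 32 UMIs, but 1 cell held 50.0% of the day 3 UMIs. Iglc1 stood at 653 and 1658 CPM (2.54, 2.07 to 3.13), and the ratio was 1.20 with Cd93 cells weighted alike. Of its 335 day 3 UMIs, 1 lambda cell held 123 and 1 mixed cell 87. Lower at day 3 were the motor Myo5a (25 and 6 UMIs; 0.244, 0.0818 to 0.609), the mitochondrial protease Yme1l1 (38 and 16; 0.428, 0.223 to 0.786), the B cell adaptor Stap1 (54 and 26; 0.489, 0.294 to 0.795) and the quiescence factor Slfn2 (38 and 17; 0.454, 0.241 to 0.825). Ppp1r18, Ppp1r12a, Sec11a and Poldip3 had ratios of 0.423, 0.451, 0.376 and 0.391.

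At day 7, 4 of the 14 immediate early genes measured (Fos, Egr1, Nr4a1 and Ier2) were at least 2-fold lower than in sham, and Jun was higher. Immediate early genes, the first to be transcribed after a receptor or stress signal, include the AP-1 subunits Fos and Jun and the factors Egr1 and Nr4a1, the last a known reporter of antigen receptor signalling in B cells. Of 1422 genes, 37 (2.6%) were at least 2-fold higher and 62 (4.36%) at least 2-fold lower. With scaling by TMM factors the split was 24 and 85, since the median log2 ratio of all genes then moved from -0.01 to -0.12. The median over the 14 was -0.71 on the log2 scale, against -0.01 for all genes. The 9 that were not past 2-fold had ratios from 0.501 (Fosb) to 1.08 (Jund).

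Fos had 92 UMIs in 17 sham cells, 79 in 13 day 3 cells, 3 in 3 day 7 cells and 28 in 5 day 14 cells. Its level was 448, 391, 33.5 and 469 CPM, low at day 7 only, with a day 7 ratio of 0.0747 (0.0151 to 0.225). Egr1 had 63, 57, 1 and 7 UMIs, or 307, 282, 11.2 and 117 CPM, with ratios of 0.0364 (0.000907 to 0.210) at day 7 and 0.382 (0.148 to 0.834) at day 14. Single cells weighed on the high pools: the top cell held 28.3% of the sham Fos UMIs and 30.2% of those of Egr1. Without the top cell of each pool the day 7 ratios were 0.0748 for Fos and 0.161 for Egr1, the latter with 0 UMIs left at day 7 and counted as 3.

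Nr4a1 had 81, 53, 12 and 3 UMIs in 22, 15, 4 and 2 cells. It stood at 395, 262, 134 and 50.3 CPM, lowest at day 14, with ratios of 0.665 (0.461 to 0.951), 0.340 (0.168 to 0.626) and 0.127 (0.0257 to 0.386). At day 7, 1 cell held 66.7% of its UMIs, and the ratio without the top cells was 0.134. Ier2 stood at 580, 440, 268 and 302 CPM (day 7: 0.462, 0.285 to 0.721). Egr3 had 20, 20, 0 and 8 UMIs and was below 30 in the day 7 comparison. Junb, the most abundant of the list, stood at 3093, 2890, 2177 and 2295 CPM, within 2-fold. Jun went the other way, at 258, 381, 603 and 570 CPM, but 53.7% of its day 7 and 64.7% of its day 14 UMIs lay in 1 cell each, and without the top cells its ratios were 1.35 and 1.00.

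**Figure D5:**
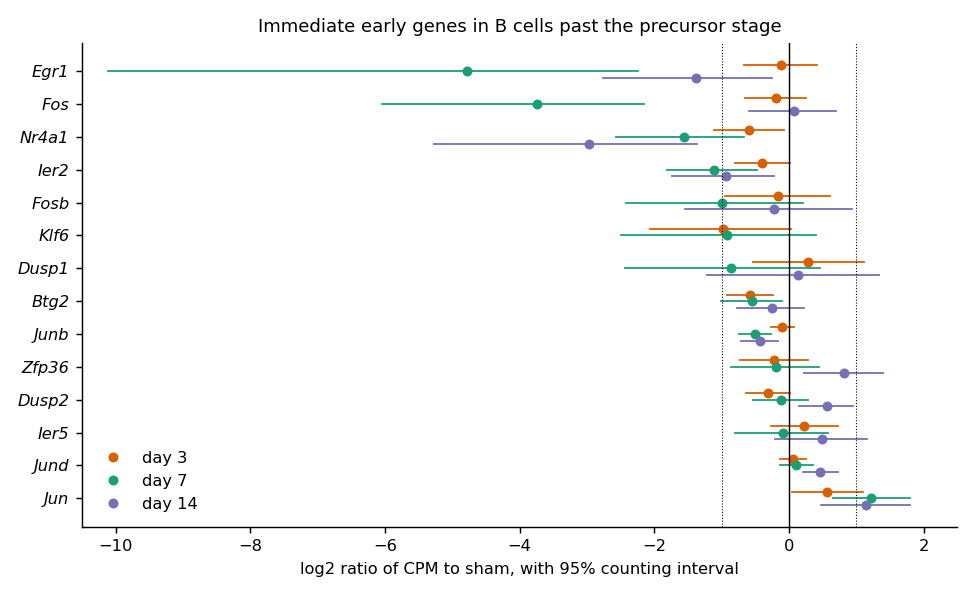
Log2 ratio of CPM to sham for the 14 immediate early genes measured at day 7 in B cells past the precursor stage, with exact 95% counting intervals (x) per gene (y) and day (colour); dotted lines mark 2-fold. Egr1, Fos, Nr4a1 and Ier2 lie lowest at day 7, and the day 3 points all lie within 2-fold of sham.

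Other cells gave values beside these. In the precursors 4 of 14 immediate early genes lay at least 2-fold below sham at day 7 (median log2 ratio -0.74); Fos stood at 107, 63.0, 14.3 and 34.8 CPM, while Egr1 stood at 167, 150, 193 and 82.6. The day 7 level of Egr1 rested on few precursors: 14 of its 27 UMIs lay in 1 cell, 4 of 26 cells held any (15.4%, against 44.3% in sham), and without the top cell of each pool it stood at 151, 139, 96.6 and 66.9 CPM. In the S100a8/S100a9-high cells Fos stood at 618, 907, 744 and 538 CPM and was in 87.2% of cells, with a day 7 ratio of 1.21 (1.07 to 1.36). Other genes of the list lay below sham in these cells at day 7, with ratios of 0.548 (0.383 to 0.775) for Egr1, 0.603 (0.410 to 0.875) for Nr4a1, 0.488 (0.244 to 0.924) for Fosb and 0.670 (0.604 to 0.742) for Junb. Enzymatic digestion induces these genes in many tissues, and its part was not tested. Heat shock genes, which digestion can also induce, had no call at day 7 but a median log2 ratio of -0.79 over 6 genes. Hspa8 stood at 1627, 1247, 882 and 1122 CPM. In the precursors the day 7 median of that list was -0.17 over 7 genes, with none past 2-fold.

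Beyond that list, Hes1, a Notch target, had 57, 49, 3 and 18 UMIs (day 7: 0.121, 0.0242 to 0.371) and Gadd45b, a stress-response gene, 35, 31, 3 and 28 (0.196, 0.0387 to 0.623). Slfn2 (0.121, 0.0141 to 0.467) and the phosphatase inhibitor Ppp1r14b (0.158, 0.0183 to 0.625) were low on 2 UMIs each. Apoe, an apolipoprotein, had 111, 73, 10 and 93 UMIs. Its ratio was 0.206 (0.0963 to 0.394) at day 7 and 2.88 (2.16 to 3.83) at day 14. At day 7, 1 cell held 60% of its UMIs. At day 14 they lay in 5 of 10 cells, and cells of 7157 and 9609 gene UMIs held 40 each. Without the top cell of each pool the ratios were 0.113 and 2.40, and at day 14 this removes only 1 of the cells with 40. The 10 macrophage and monocyte markers summed to 21, 19, 7 and 2 UMIs, and the part of macrophage RNA was not tested.

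Higher at day 7, apart from Ikzf3, were several genes that also mark precursors. Sox4 had 13, 20, 26 and 3 UMIs (4.58, 2.27 to 9.71), with 61.5% of the day 7 UMIs in 1 cell, Myb 13, 16, 18 and 13 (3.17, 1.47 to 7.04) and Tifa 24, 26, 33 and 5 (3.15, 1.81 to 5.57). Beside them, Rag1, Rag2, Il7r, Sox4 and Cd93 together gave 5 or more UMIs in 0 of 39 sham cells, 3 of 37 at day 3, 5 of 17 at day 7 and 0 of 10 at day 14. Cells without any UMI of these 5 genes were also compared alone, a choice made after seeing the data. Then 60 genes rather than 99 were past 2-fold at day 7, and the immediate early median was -1.12. This left out 12 of 39 sham cells and 7 of 17 day 7 cells, which can lower the number of genes measured. The drop in the count is therefore not read as a drop in the share past 2-fold. Atp1b1, a subunit of the sodium pump (3.06, 1.94 to 4.85), Colgalt1 (3.06, 1.67 to 5.66), the chromatin reader Zmynd8 (3.44, 1.67 to 7.31) and Fam53b (3.06, 1.49 to 6.41) were higher as well. Over all pools these genes too were lower in the B cells than in the precursors, with ratios of 0.277, 0.668, 0.609 and 0.242.

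At day 14, on 10 cells, 4 of the 6 homing receptors measured were at least 2-fold lower than in sham. Of 1225 genes, 37 (3.02%) were at least 2-fold higher and 82 (6.69%) at least 2-fold lower; TMM scaling gave 18 and 126, with a median log2 ratio of all genes of -0.23 against -0.02. Of the 16 homing receptors in the list 6 were measured, and the median log2 ratio of the 6 was -1.60. S1pr1, the receptor for exit from lymphoid organs, stood at 195, 153, 190 and 33.5 CPM (0.172, 0.0201 to 0.663) with 2 UMIs at day 14, Gpr183 at 151, 257, 100 and 33.5 and Ccr7 at 341, 435, 223 and 168. Day 14 was the lowest pool for each of these 3, while Cxcr4, the receptor for the bone marrow chemokine Cxcl12, had a ratio of 1.26 (0.908 to 1.73) and the integrin Itga4 of 0.955 (0.423 to 1.97). With 6 rather than 4 marker UMIs required, 2 of 5 were lower and the median was -0.88. Of 6 follicular genes measured at day 14, 3 were at least 2-fold lower, with a median log2 ratio of -0.71. Follicular and homing genes overlap, for example in Ccr7, so these are not separate results. Cr2 had 20, 12, 8 and 0 UMIs. The share of cells with Fcer2a at day 14 was 4 of 10, and 12 of its 20 UMIs lay in 1 cell.

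Higher at day 14 were Plac8 (28 and 51 UMIs; 6.26, 3.88 to 10.3), the cyclin Ccnd2 (19 and 35; 6.34, 3.53 to 11.7) and the zinc finger factor Zbtb20 (21 and 33; 5.40, 3.03 to 9.83). A single cell held 51%, 68.6% and 51.5% of their day 14 UMIs, and without the top cells the ratios were 3.66, 2.97 and 3.75. Fam53b was higher here as at day 7 (3.44, 1.57 to 7.55), as was Pkig, an inhibitor of protein kinase A (2.47, 1.53 to 3.94). Iglc2 stood at 1296 and 3350 CPM (2.59, 2.14 to 3.12), but at 1.41-fold with Cd93 cells weighted alike. Of its 200 day 14 UMIs, 1 lambda cell held 62 and another 73. Id2, an inhibitor of E proteins (2.91, 1.57 to 5.34), had 72.7% of its UMIs in 1 cell and a ratio of 1.98 without the top cells. Pecam1, which makes up nearly all of the stromal marker UMIs above, was higher too (19 and 16 UMIs; 2.90, 1.39 to 5.95), and 2.30 without the top cells. The part of stromal RNA in the day 14 values was not tested. Lower, besides Nr4a1 and S1pr1, were the endoplasmic reticulum protein Rrbp1 (56 and 1 UMIs; 0.0614, 0.00153 to 0.356), the splicing protein Snu13 (47 and 3; 0.220, 0.0437 to 0.682), the actin-binding Tagln2 (29 and 1; 0.119, 0.00290 to 0.715), and Sys1, Ttc14 and Aes with ratios of 0.206, 0.107 and 0.302.

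In the B cell receptor list only a lambda constant gene was past 2-fold at day 3 and at day 14, of 17 and 15 measured. The nuclear-coded respiratory chain had 0 of 16, 15 and 15 genes past 2-fold, with medians of 0.07, 0.07 and 0.20. The survival list had 1 of 7 at day 3 (Bcl2, 0.489) and none later. Of the NF-kB feedback genes, Tnfaip3 was lower at day 3 and day 7 (0.414 and 0.424) and stood at 132, 54.4, 55.8 and 235 CPM. Of 5 glucocorticoid response genes measured at day 7, the receptor Nr3c1 (0.395, 0.119 to 1.03) and the mRNA decay factor Zfp36l2 (0.484, 0.258 to 0.853) were lower; the median over the 5 was -0.86 on the log2 scale, and none was past 2-fold at day 3 or day 14. Of 20 S phase and cell cycle genes 3 were measured. The chromatin protein Hmgb2 (0.270, 0.0945 to 0.628) and the tubulin Tuba1b (0.417, 0.143 to 1.01) were lower at day 7, where the median of the 3 was -1.26, and Hmgb2 (0.472, 0.181 to 1.04) at day 14, where it was -0.88. Hmgb2 stood at 248, 247, 67.0 and 117 CPM.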

How the data were processed

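The deposited values were UMI counts per gene and barcode, and hashtag UMI counts for the same barcodes, made by the authors with Cell Ranger 3.1.0, per the file headers, on mm10, per the submitters' processing notes. Barcodes with at least 200 genes and at most 10% mitochondrial UMIs were kept (1377), and those whose top hashtag had at least 10 UMIs and 80% of the hashtag UMIs (1285). UMIs of the cells were summed per pool and scaled to a total of 1000000 (CPM). A gene was measured at 30 UMIs in both groups together and called at 2-fold, with 0 UMIs counted as 3. A gene could thus pass mainly through the group where it was high. Ratios have exact conditional Poisson intervals and shares exact Clopper-Pearson intervals, both at 95%. No test between conditions was possible with 1 pool each. The ratio code was tested on simulated data. Named genes were the 8 highest and 8 lowest per day (10 and 10 against precursors) by the interval bound nearest 1 that kept 1.5-fold without their top cell, leaving out mitochondrial, ribosomal protein, variable segment, unnamed, sex-linked, neutrophil and erythroid genes, plus the gene lists. The cells, lists and rules were chosen with earlier results of these data known. Promoter sequences came from RefSeq (GRCm38.p6) and gene positions from GENCODE. Tools were Python 3.11.15, scipy 1.17.1 and pandas 2.3.3, with edgeR 4.0.16 (TMM factors) and Seurat 5.3.0 (HTODemux) for alternatives. Alternatives changed the hashtag rule, mitochondrial limit, marker minimum, depth, denominator, UMI minimum, scaling, weights, top cells, cells with other markers and the share of Cd93 cells. The sample labels name both a v2 and a v3 kit.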

Additional observations from a re-analysis of the deposited data

Results flagged for a closer look

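Outside the 1285 hashtagged cells, 7 barcodes passed the same gene rule without a single hashtag. They held a median of 14859 gene UMIs (9799 to 21626), against 5150 in the cells used, and their second hashtag gave 168 to 398 UMIs. They belong to no pool and entered no comparison.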

How the results depend on the processing

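No paired analysis was possible because each condition is 1 pool with no replicate number. Of 463 recomputed values of named genes 454 stayed past 2-fold in the same direction and 9 fell inside 2-fold. None changed direction. Part of this tally was fixed in advance. Another UMI minimum leaves the ratio of a named gene as it was. Genes were also named only if they kept 1.5-fold the same way without their top cell. Of 229 recomputed list medians 210 stayed within 0.25 log2 of the value reported and 19 moved further. The median lay on the other side of 0 in 33, all of lists whose reported median was within 0.26 of 0. The shares followed 3 settings. A mitochondrial limit of 5% gave 5.60%, 2.84%, 2.29% and 0.741% (sham, day 3, day 7, day 14), thinning to 1500 UMIs gave 5.67%, 3.35%, 3.79% and 2.35%, and counting only cells low in S100a8 and S100a9 gave 12.5% at day 3. The interval of the day 3 ratio to sham held 1 under these 3 and with 6 marker UMIs. The count of genes past 2-fold followed the UMI minimum: 391, 416 and 472 (day 3, day 7, day 14) at 15 UMIs and 9, 19 and 22 at 60, against 69, 99 and 119. Weighting cells with and without Cd93 alike gave 158, 166 and 180, leaving out the top cell of each gene gave 199 at day 14, and leaving out cells with precursor genes, chosen after seeing the data, gave 60 at day 7. The UMI minimum and the cells left out can also change how many genes are measured. These counts therefore do not give the share of measured genes past 2-fold. The cause of these moves was not tested. Depth limits day 14 most: 59694 UMIs in 10 cells.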

Other observations

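These B cells had, by median, more hashtag UMIs than the S100a8/S100a9-high cells of their own pool, and antibody binding itself was not measured. Their median hashtag UMIs were 431 in sham, 296 at day 3, 295 at day 7 and 356.5 at day 14. The S100a8/S100a9-high cells of the same pools had 310, 188.5, 138 and 182.5, lower in each pool, and the precursors 330.5, 303, 232 and 455. Each pool has its own antibody, so levels are comparable only within a pool.

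Genes of other mature B cell types gave no common direction. Of 6 marginal zone genes measured against the precursors, Cr2 and Dtx1 were at least 2-fold higher, 2 were lower and 2 were within 2-fold; S1pr3 had 1 UMI and Cd9 had 5 in the 103 cells. Of 5 B1 genes measured, Ahnak was higher (2.07, 1.07 to 3.98) and 1 was lower; Cd5 had 1 UMI and Bhlhe41 had 19. Against sham, the marginal zone gene Plac8 and the B1 gene Zbtb20 were higher at day 3 (2.61 and 2.03) and at day 14 (6.26 and 5.40). Without the top cells these were 2.30 and 1.86, and 3.66 and 3.75. Plac8 was 1 of 3 marginal zone genes measured at day 3, where the list median was -0.20 on the log2 scale. Zbtb20 was the only B1 gene measured. Over all pools Plac8 was at 1.03 (0.853 to 1.25) against the precursors. The toll-like receptors Tlr7 and Tlr9 had 1 and 4 UMIs, while Cd180, a toll-like receptor relative of B cells, had 58, against 7 in the precursors. The cytokine Ltb stood at 945 CPM against 264 in the precursors.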
